A study of Mus musculus with 38 samples.

Results

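The growth arrest genes described here are 10 genes of 4 families: the CIP/KIP inhibitors of cyclin-dependent kinases Cdkn1a, Cdkn1b and Cdkn1c, the stress sensors Gadd45a, Gadd45b and Gadd45g, the antiproliferative genes Btg1 and Btg2, and the atypical cyclins Ccng1 and Ccng2. A transcription start site (TSS) cluster was taken as a member when its highest peak lay within 500 bp, on the same strand, of an annotated 5′ end of one of these genes. Each of the 10 genes had exactly 1 such cluster, so that 10 of the 10819 clusters in the data are described, and no other gene had a 5′ end in the window of any of them. The rule that links clusters to genes used gene names and positions and no measured value. The 10 genes themselves were chosen with earlier results of these data known, so counts of members called are descriptive.

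CDK inhibitors bind cyclin and kinase complexes and hold cells before DNA replication. GADD45 proteins bind stress kinases and the replication clamp PCNA, and BTG proteins recruit the CCR4-NOT deadenylase to messenger RNAs. In skeletal muscle most nuclei belong to fibers that no longer divide, and several of these genes are known there as responders to fasting, glucocorticoids, denervation or FOXO activity rather than as brakes on division.

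Soleus muscles of young adult male C57BL/6J mice were profiled by nAnT-iCAGE, a non-amplified cap analysis of gene expression that sequences the capped 5′ ends of RNA, in 38 libraries of 6 conditions. For fasting-induced torpor, mice at low ambient temperature were sampled on day 1 with food (Pre), on day 2 without food while torpor was likely (Mid), and on day 3 after food was returned (Post). The other conditions, all of day 2, were fasting at high ambient temperature, at which mice do not enter torpor (HiT), low ambient temperature with food (Fed), and fasting at low temperature with torpor interrupted by gentle touching (Dep). Experiment #1 covered all 6 conditions with 4 libraries each, except Mid with 8, while experiment #2 had 2 libraries of Pre, 5 of Mid and 3 of Post. All animals were of the wild-type strain with no transgene, each library came from 1 animal, and the conditions follow the study's description, since the labels give the Fed samples as starved and the design text gives the HiT samples food. The Mid group holds animals chosen by time of day, so that it can hold animals between torpor bouts.

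Libraries of experiment #1 held 18257657 to 39176649 tags in clusters and those of experiment #2 held 9359994 to 20914855, and 93.1% to 95.6% of all mapped tags lay in clusters. Levels are given as tags per 1000000 tags of the library (CPM), scaled within each experiment by the trimmed mean of M-values (TMM). A CAGE tag marks 1 RNA 5′ end, so a level does not grow with transcript length. Of the muscle markers, 7 of 8 slow-fiber and 8 of 8 fast-fiber genes had a cluster, whereas 9 of 12 markers of dividing cells, Mki67, Top2a and Cdk1 among them, had none. In these bulk libraries, a change in the cells present and a change in RNA per cell cannot be told apart.

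The members differed widely in level, expressed as CPM averaged over the 28 libraries of experiment #1. Ccng1 was the most abundant at 491 CPM, above 97.8% of the 10776 clusters tested, followed by Cdkn1a at 125.5 CPM. Cdkn1b (43.9 CPM), Gadd45g (43.3 CPM), Btg2 (29.6 CPM), Btg1 (24.3 CPM), Gadd45a (16.98 CPM) and Ccng2 (14.3 CPM) lay in the middle. Cdkn1c (8.57 CPM) and Gadd45b (4.50 CPM) were low, the latter at the percentile 6.77 of all clusters. The lowest count behind any value was 14 tags, for Gadd45b in a Pre library of experiment #2.

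In mm10 coordinates the Cdkn1a cluster lay on chromosome 17 from 29093705 to 29093856 on the plus strand, with its peak 4 bp downstream of the annotated 5′ end. The Gadd45b cluster, the narrowest at 79 bp, lay on chromosome 10 from 80930056 to 80930134 (plus), and the Gadd45g cluster on chromosome 13 from 51846649 to 51846781 (plus). The Btg2 cluster lay on chromosome 1 from 134078912 to 134079183 (minus), and the Ccng2 cluster on chromosome 5 from 93267485 to 93267750 (plus). Peaks of 8 members were within 4 bp of an annotated 5′ end. The exceptions were Ccng1 (chromosome 11, 40754984 to 40755404, minus), with the peak 92 bp inside the transcript, and Cdkn1b (chromosome 6, 134920267 to 134921401, plus), a 1135 bp wide cluster with its peak 205 bp inside. Each of the 10 clusters spans the annotated 5′ end and reaches into the first exon.

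The promoters of the 5 members that rose and fell in both experiments are shown because they carry the main result: 200 bases from 180 before to 20 after the RefSeq start (GRCm38.p6, the build of mm10), 5′ to 3′ on the gene's strand. Capitals mark the TATA letters TATAAA, the box CCAAT and the cAMP response element TGACGTCA, each on either strand. The measured Btg2 peak lay 36 bp downstream of the RefSeq start, beyond the printed bases.

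Cdkn1a (chr17:29093589-29093788, plus): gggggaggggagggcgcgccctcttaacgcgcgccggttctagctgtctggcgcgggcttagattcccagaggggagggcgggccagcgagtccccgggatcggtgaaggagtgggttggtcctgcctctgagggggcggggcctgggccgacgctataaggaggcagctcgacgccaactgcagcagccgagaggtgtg
Gadd45b (chr10:80929911-80930110, plus): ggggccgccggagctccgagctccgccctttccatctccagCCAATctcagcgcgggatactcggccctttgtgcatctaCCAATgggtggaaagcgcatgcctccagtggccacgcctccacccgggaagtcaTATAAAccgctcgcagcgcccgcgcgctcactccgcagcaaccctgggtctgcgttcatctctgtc
Gadd45g (chr13:51846495-51846694, plus): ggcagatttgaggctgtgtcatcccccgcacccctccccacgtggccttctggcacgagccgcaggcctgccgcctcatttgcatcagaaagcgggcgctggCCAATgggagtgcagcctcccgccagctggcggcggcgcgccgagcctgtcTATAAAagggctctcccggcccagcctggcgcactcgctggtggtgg
Btg2 (chr1:134079136-134079335, minus): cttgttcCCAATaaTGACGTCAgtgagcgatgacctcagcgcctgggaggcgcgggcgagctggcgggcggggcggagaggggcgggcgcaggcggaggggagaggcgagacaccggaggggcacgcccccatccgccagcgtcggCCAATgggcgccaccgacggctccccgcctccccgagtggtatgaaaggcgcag
Ccng2 (chr5:93267393-93267592, plus): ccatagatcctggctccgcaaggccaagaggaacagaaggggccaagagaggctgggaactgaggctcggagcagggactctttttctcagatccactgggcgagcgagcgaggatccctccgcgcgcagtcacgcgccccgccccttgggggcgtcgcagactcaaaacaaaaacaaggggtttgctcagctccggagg

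RefSeq windows of 300 bases, 250 before to 50 after the start, were held for 9 of the 10 members (not for Cdkn1c). Positions count from the RefSeq start, not from the measured peak. The peak lay downstream of that start by 36 bp for Btg2, 67 bp for Ccng1 and 317 bp for Cdkn1b. The peaks of Ccng1 and Cdkn1b thus lay outside their windows. CCAAT, on either strand, was in 7 of the 9 windows and in 37.4% of all 32851 promoter windows, and the GC box GGGCGG was in 7 of the 9 and in 35.7% of all. The GC content of the 9 windows ran from 55.7% (Ccng1) to 72.0% (Btg2), above the median of 52.7% of all windows. The part of GC content in these counts was not tested. The TATA letters TATAAA were in Gadd45b, Gadd45g and Btg1, and in 13.6% of all windows. Only the Btg2 window, at base −166 from the start, held TGACGTCA, which was in 1.79% of all windows. The FOXO core GTAAACA was in the Btg1 window alone (3.65% of all), the E-box CACGTG in those of Gadd45b and Gadd45g (7.15% of all), and the p53 decamer, 1 unit of a p53 response element, in those of Gadd45a and Ccng1 (8.36% of all). None of the 9 held the AP-1 site TGACTCA (5.202% of all). These matches describe the letters in the window and say nothing of the binding of a factor.

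The Pre to Mid comparison asked which promoters change between the fed day 1 and the fasted day 2 on which torpor was likely. Pre and Mid differ in food and in day as well as in torpor, and this comparison cannot tell these apart. Of the 10 members, 6 rose in experiment #1 (Cdkn1a, Gadd45b, Btg2, Gadd45g, Ccng2 and Gadd45a), 1 fell (Ccng1), and 3 did not pass the test (Btg1, Cdkn1b and Cdkn1c), at a false discovery rate (FDR) below 0.05 in edgeR's quasi-likelihood test over all clusters. Across all clusters 30.2% passed in this comparison, and 15.4% passed as higher in Mid. The median log2 fold change was 0.78 over the members and 0.01 over all 10776 clusters.

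The summed level of dividing-cell markers was also higher in Mid. The 3 that had a cluster, Ccna2, Birc5 and Rrm2, summed to 2.27 to 4.21 CPM in Pre, 4.95 to 12.9 CPM in Mid and 3.52 to 4.92 CPM in Post, with no overlap of Mid with Pre or Post, and 1 of the 3 was called higher in Mid than in Pre. In experiment #2 the sum was 2.76 CPM in both Pre libraries, 4.74 to 22.3 CPM in Mid and 3.42 to 6.03 CPM in Post, with 1 of 3 again called from Pre to Mid. The sum of 7 macrophage markers overlapped, at 38.4 to 61.8 CPM in Pre and 39.9 to 62.1 CPM in Mid of experiment #1, and 1 of them was called. Of 8 endothelial markers 3 were called higher and 3 lower in Mid, and 0 of 7 slow and 0 of 8 fast muscle markers were called. The part of these cells in the member values was not tested.

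**Figure D1:**
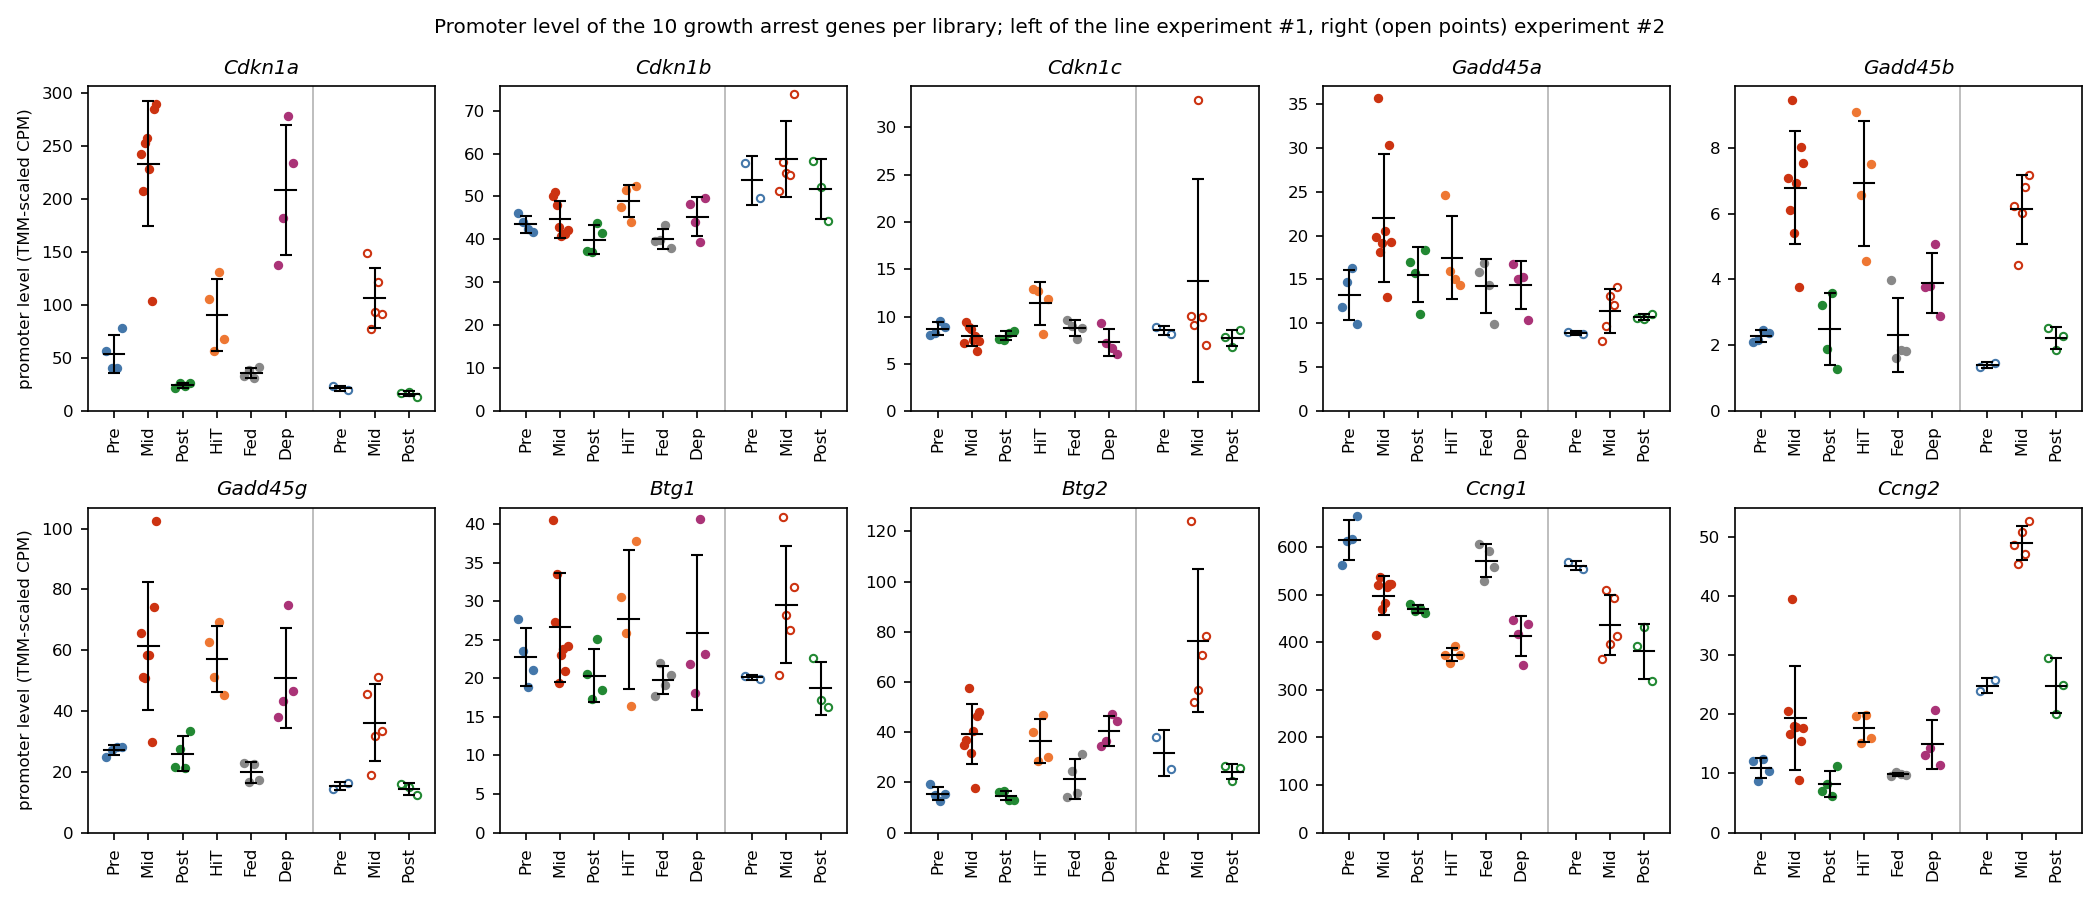
Promoter level (vertical axis, TMM-scaled CPM from 0) of each member in every library, by condition, with filled points for experiment #1 and open points for experiment #2, and bars for the mean ± SD. Cdkn1a stood between 103 and 290 CPM in the Mid libraries of experiment #1 and between 21.5 and 26.4 CPM in the Post libraries, whereas Cdkn1b stayed between 37.0 and 52.5 CPM in all 28.

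Cdkn1a, which encodes p21, the CDK inhibitor induced by p53 and also by glucocorticoid and FOXO signaling, showed the largest change of the members. It measured 56.7, 40.7, 40.1 and 78.1 CPM in the 4 Pre libraries and 103 CPM at the lowest, 247.5 at the median and 290 at the highest in the 8 Mid libraries. Every Mid library was above every Pre library. The rise was 4.32-fold (log2 2.11 ± 0.26 SE, FDR 1.54e-06). An exact two-sided permutation test of this gene gave p = 0.00202, the smallest that 4 against 8 libraries allow.

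In the Post libraries Cdkn1a measured 21.5, 26.4, 23.7 and 25.999 CPM. All 4 values were below every Mid and every Pre library, and the fall from Mid was 9.55-fold (log2 −3.26 ± 0.28 SE, FDR 4.93e-09). The level after refeeding was thus below that before fasting, by a log2 change of −1.14 ± 0.28 SE (FDR 0.0292), although only 1.85% of all clusters were called between Pre and Post. That Pre to Post call was lost without Pre replicate 1 or 4 or without any of the Post libraries, with FDR up to 0.136, and without TMM scaling (FDR 0.138). The other member called there was Ccng1, with a log2 change of −0.39 ± 0.08 SE (FDR 0.00943, and 0.364 without TMM scaling).

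The other CIP/KIP inhibitors moved differently. Cdkn1b, which encodes p27, measured 43.6 ± 1.98 CPM in Pre (SD, n = 4), 44.7 ± 4.29 in Mid (n = 8) and 39.9 ± 3.39 in Post (n = 4). The Pre to Mid log2 change was 0.04 ± 0.08 SE (FDR 0.756). Cdkn1c, the imprinted gene of p57, measured 8.69 ± 0.69 CPM in Pre, 7.93 ± 1.01 in Mid and 7.96 ± 0.50 in Post, with a Pre to Mid log2 change of −0.13 ± 0.12 SE (FDR 0.439). The ranges of the groups overlapped for both genes in both steps.

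All 3 Gadd45 genes rose. Gadd45b, a sensor known as an early response gene of stress and of TGF-beta signaling, measured 2.08, 2.15, 2.47 and 2.38 CPM in Pre. In Mid its lowest value was 3.76, its median 7.001 and its highest 9.46 CPM, all above Pre. The rise was 2.99-fold (log2 1.58 ± 0.29 SE, FDR 0.00016), and in Post the level was 3.23, 1.88, 3.58 and 1.29 CPM, below every Mid library.

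Gadd45g, the member of the family known for its part in differentiation, measured 24.9, 27.2, 28.2 and 28.3 CPM in Pre and 29.6 CPM at the lowest, 58.3 at the median and 102 at the highest in Mid. The groups did not overlap, and the rise was 2.26-fold (log2 1.18 ± 0.23 SE, FDR 0.000327). Post libraries measured 21.6, 27.6, 21.3 and 33.4 CPM, which overlapped Mid by 1 library on each side, and the fall was by 1.24 on the log2 scale (FDR 0.000149).

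Gadd45a, the family's founding gene and a p53, FOXO and ATF4 target linked to muscle atrophy, changed less. Pre libraries measured 11.8, 14.8, 16.3 and 9.90 CPM and Mid libraries 13.03 to 35.7 CPM with a median of 19.55, so that the groups overlapped. The rise was 1.67-fold (log2 0.74 ± 0.22 SE, FDR 0.0134) and was not called without Pre replicate 4 (FDR 0.0612) or without TMM scaling (FDR 0.0963). After torpor the log2 change was −0.50 ± 0.22 SE (FDR 0.0778).

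Btg2, an immediate early gene whose promoter above holds the cAMP response element letters, measured 19.3, 14.9, 12.7 and 15.3 CPM in Pre and 17.8 CPM at the lowest, 38.7 at the median and 57.5 at the highest in Mid. One Mid library lay within the Pre range. The rise was 2.52-fold (log2 1.33 ± 0.24 SE, FDR 0.000132), and the 4 Post libraries at 15.97, 16.7, 12.99 and 13.1 CPM all lay below Mid, a fall by 1.42 on the log2 scale (FDR 5.15e-05). Its relative Btg1 measured 22.8 ± 3.79 CPM in Pre and 26.6 ± 7.11 in Mid, with a log2 change of 0.22 ± 0.21 SE (FDR 0.451).

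The cyclin G genes went in opposite directions. Ccng2, a FOXO target that encodes a cyclin found in resting cells, measured 12.005, 8.68, 12.5 and 10.4 CPM in Pre and 8.95 CPM at the lowest, 17.7 at the median and 39.5 at the highest in Mid. The groups overlapped through 1 Mid library. The rise was 1.77-fold (log2 0.82 ± 0.25 SE, FDR 0.0121), with FDR 0.0549 without Pre replicate 2 and 0.0733 without TMM scaling. The fall from Mid to Post was larger, by 1.24 on the log2 scale (FDR 0.000417), to 7.02, 8.18, 6.19 and 11.2 CPM.

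Ccng1, a p53 target that binds the phosphatase PP2A, measured 562, 614, 618 and 666 CPM in Pre, 414 CPM at the lowest, 518 at the median and 536 at the highest in Mid, and 480, 466.5, 472 and 461 CPM in Post. Every Mid library was below every Pre library, the decrease being small but tight (log2 −0.30 ± 0.07 SE, FDR 0.00125). Ccng1 did not return in Post, where the log2 change from Mid was −0.08 ± 0.07 SE (FDR 0.363).

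From Mid to Post 5 members fell and 0 rose, against 35.0% of all clusters called and 17.5% called as lower. The members that fell were Cdkn1a, Gadd45b, Btg2, Ccng2 and Gadd45g, each of which had risen from Pre to Mid. Both comparisons share the Mid libraries, so the Pre and Post levels given above are set side by side instead. Between Pre and Post, Gadd45b, Gadd45g, Btg2 and Ccng2 did not pass the test (FDR 0.573 to 0.954).

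Within the Mid group, replicate 6 was the lowest of 8 libraries for all 6 members that rose, a pattern noticed after the values were seen. Relative to the Pre mean, on the log2 scale, it stood at 0.93 for Cdkn1a, 0.62 for Gadd45b, 0.19 for Btg2, 0.12 for Gadd45g, −0.02 for Gadd45a and −0.27 for Ccng2. Without it the Pre to Mid log2 change was 2.24 for Cdkn1a (FDR 3.28e-08) and 0.94 for Ccng2 (FDR 0.00128), and the same 7 members were called. From Mid to Post its removal added Gadd45a (log2 −0.57 ± 0.20 SE, FDR 0.0292). Its TMM factor was 0.83, the lowest of the Mid group, and the part of this library property in the values was not tested.

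**Figure D2:**
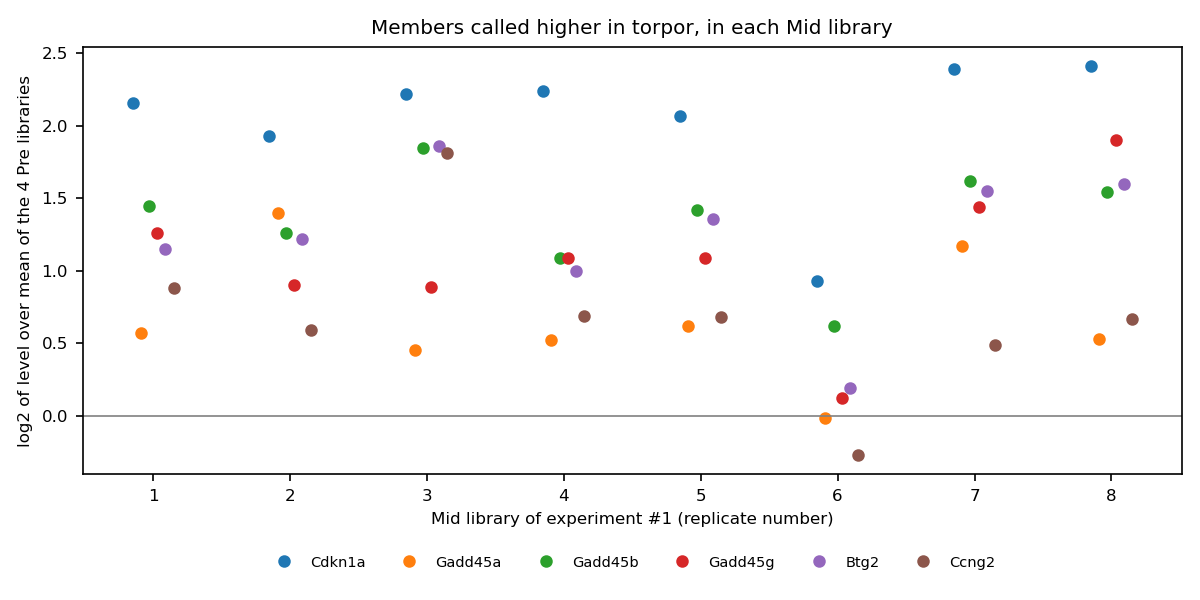
Level of the 6 members called higher in Mid, as log2 of the level over the mean of the 4 Pre libraries (vertical axis, 0.5 CPM added to both), in each of the 8 Mid libraries of experiment #1 (horizontal axis). Replicate 6 is lowest for all 6 genes, with Cdkn1a at 0.93 against 1.93 to 2.41 in the other 7 libraries.

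Experiment #2 measured the same steps in other animals. From Pre to Mid 5 members rose (Cdkn1a, Gadd45b, Btg2, Gadd45g and Ccng2) and 0 fell, against 9.74% of all clusters called and 5.3% called as higher. From Mid to Post 6 members fell, the same 5 and Btg1, against 16.4% of clusters called and 8.65% called as lower. With sequencing lane as a term, the falls of Gadd45g (FDR 0.135) and Btg1 (FDR 0.206) were not called. Levels are scaled within each experiment, so they are not compared between them.

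For Cdkn1a in experiment #2, the Pre libraries measured 23.2 and 19.5 CPM, the Mid libraries 149, 77.7, 93.5, 122 and 91.2 CPM, and the Post libraries 16.7, 18.1 and 13.5 CPM. No Mid value overlapped Pre or Post. The rise was 4.97-fold (log2 2.31 ± 0.26 SE, FDR 0.000886) and the fall 6.61-fold (FDR 3.78e-05). Gadd45b measured 1.33 and 1.47 CPM in Pre, 6.23, 4.44, 6.02, 6.79 and 7.17 in Mid and 2.53, 1.85 and 2.27 in Post, again without overlap, and rose 4.34-fold (FDR 0.00194).

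Ccng2 in experiment #2 measured 23.9 and 25.7 CPM in Pre, 48.6, 45.4, 50.7, 47.1 and 52.6 CPM in Mid, and 29.5, 20.1 and 24.97 CPM in Post. It rose 1.97-fold (log2 0.98 ± 0.14 SE, FDR 0.00243) with no overlap. Gadd45g (log2 1.23 ± 0.33 SE, FDR 0.0388) and Btg2 (log2 1.27 ± 0.32 SE, FDR 0.0325) were also separated from Pre, but each call was lost with sequencing lane as a term (FDR 0.0606 and 0.0591), and in that experiment all Pre libraries and 4 of the 5 Mid libraries were in lane 3 and all Post libraries in lane 4. The Gadd45g call was also lost without Pre replicates 5 or 6, Mid replicates 9, 12 or 13 or Post replicates 5 or 6 (FDR up to 0.229), and the Btg2 call without Pre replicates 5 or 6 or Mid replicates 12 or 13 (FDR up to 0.248).

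Gadd45a (log2 0.36 ± 0.20 SE) and Ccng1 (log2 −0.36 ± 0.15 SE) kept the sign of experiment #1 from Pre to Mid in experiment #2 but did not pass the test (FDR 0.296 and 0.171). Btg1 fell from Mid to Post by 0.66 on the log2 scale (FDR 0.0472), a call held in 2 of 10 refits with 1 library left out, those without Mid replicate 9 or Post replicate 5, and lost in the others (FDR up to 0.145). For none of the 10 members did the change differ between the experiments by a test of the difference itself, where 0 of 10819 clusters were called in edgeR's quasi-likelihood test for either step. At an unadjusted p under 0.05, 605 clusters passed for Pre to Mid and 704 for Mid to Post, and a likelihood ratio test called 8 and 0. The smallest member p was that of Cdkn1c from Mid to Post (unadjusted p = 0.0443, FDR 0.754 in edgeR).

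**Figure D3:**
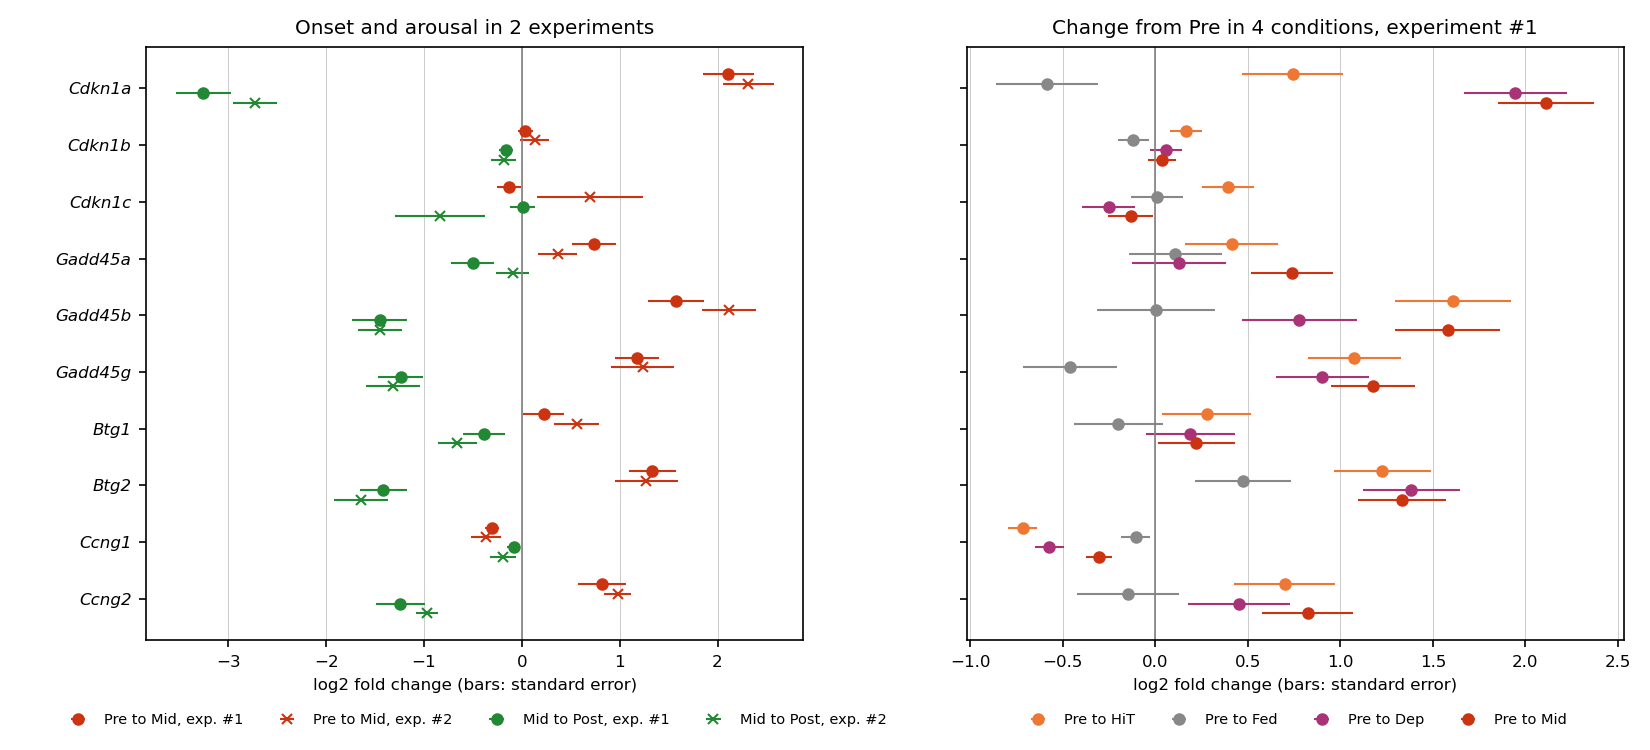
Log2 fold change with its standard error (horizontal axis) of each member, on the left for Pre to Mid and Mid to Post in both experiments and on the right from Pre to HiT, Fed, Dep and Mid in experiment #1. Cdkn1a, Gadd45b, Gadd45g, Btg2 and Ccng2 lie right of 0 from Pre to Mid and left of 0 from Mid to Post in both experiments. Ccng1 lies left of 0 throughout, with Pre to Mid of experiment #1 drawn on both sides. Ccng1 did not pass the test from Mid to Post in either experiment, from Pre to Fed, or from Pre to Mid in experiment #2.

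The HiT, Fed and Dep groups ask which part of the change goes with fasting, with ambient temperature and with the torpid state. From Pre to HiT, which differ in both food and ambient temperature, 5 members rose and 1 fell, against 33.4% of all clusters called and 18.5% called as higher. Gadd45b rose 3.05-fold to 9.10, 6.55, 4.55 and 7.497 CPM (FDR 0.000277), Btg2 2.34-fold to 40.1, 28.5, 47.0 and 29.9 CPM (FDR 0.000687), and Gadd45g 2.11-fold to 62.8, 51.3, 69.4 and 45.1 CPM (FDR 0.00167, and 0.0551 on deposited TPM). Each of these groups lay wholly above Pre.

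Cdkn1a in HiT measured 105.5, 56.8, 131 and 67.8 CPM, overlapping Pre. Its log2 change from Pre was 0.74 ± 0.27 SE (FDR 0.0367), a call lost without any of Pre replicates 1 to 3 or HiT replicates 1 or 3 (FDR up to 0.173) and without TMM scaling (FDR 0.213). Ccng2 was above Pre in all 4 HiT libraries, at 19.7, 15.2, 19.8 and 16.1 CPM, with an FDR of 0.0511 in edgeR's quasi-likelihood test and 0.0389 in DESeq2.

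Between HiT and Mid, which differ in ambient temperature and torpor while both were fasted, 41.0% of all clusters were called. Of the members Cdkn1a was higher in Mid by 2.58-fold (log2 1.37 ± 0.25 SE, FDR 9.6e-05), Ccng1 was higher by 1.33-fold (log2 0.41 ± 0.07 SE, FDR 3.77e-05), and Cdkn1c was lower (log2 −0.53 ± 0.12 SE, FDR 0.00107). The Cdkn1c call was lost without TMM scaling (FDR 0.0669), with all 38 libraries in 1 fit (FDR 0.22) and on deposited TPM (FDR 0.112). For Cdkn1a, HiT replicates 1 and 3, at 105.5 and 131 CPM, lay above Mid replicate 6 at 103 CPM and below every other Mid library. Gadd45b (log2 −0.03 ± 0.26 SE), Gadd45g (0.10 ± 0.22 SE), Btg2 (0.11 ± 0.22 SE) and Ccng2 (0.13 ± 0.24 SE) did not pass, with FDR 0.703 to 0.943. Intervals of 2 SE either side ran from −0.55 to 0.49 for Gadd45b, −0.33 to 0.53 for Gadd45g, −0.34 to 0.55 for Btg2 and −0.35 to 0.60 for Ccng2. Without Mid replicate 6 none of these 4 passed either (FDR 0.326 to 0.821).

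Ccng1 was lowest in HiT, at 373, 357, 392 and 374 CPM, below all 4 Pre libraries (log2 −0.72 ± 0.08 SE, FDR 2.23e-07) and below all 8 Mid libraries. Cdkn1c was highest there, at 12.95, 12.7, 8.11 and 11.8 CPM. Its log2 rise from Pre of 0.39 ± 0.14 SE (FDR 0.0329) was lost without TMM scaling (FDR 0.469), with only the 2 groups in the fit (FDR 0.0843), or without any of HiT replicates 1, 2 and 4 or Pre replicates 1, 2 and 4 (FDR up to 0.125).

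The HiT libraries stood apart in markers of other cells, a fact that goes beside each HiT result above. All 7 macrophage markers with a cluster were called higher in HiT than in Pre, and their summed level was 106 to 223 CPM in HiT against 35.5 to 69.4 CPM in the other 24 libraries of experiment #1. The 3 dividing-cell markers summed to 15.8 to 30.6 CPM in HiT against 1.6 to 12.9 CPM in the others. Marker counts stand beside 33.4% of all clusters called from Pre to HiT and 41.0% called from HiT to Mid. From Pre to HiT 3 of 7 slow muscle, 3 of 8 fast muscle and 3 of 4 red blood cell markers were called lower and 0 higher, and from HiT to Mid 4 of the 7 slow and 2 of the 8 fast markers were called higher. The slow sum was 9530 to 12200 CPM in HiT against 13100 to 14600 CPM in Pre, and the fast sum 15700 to 18500 against 18600 to 22300 CPM. Fibroblast and tendon markers summed to 2580 to 5360 CPM in HiT (median 4330) against 2330 to 2960 CPM in Pre (median 2460), with overlap. Of these 8 markers 1 was called higher and 1 lower from Pre to HiT, and 3 were called lower and 0 higher from HiT to Mid. HiT replicate 3, the lowest of its group in the macrophage and dividing-cell sums, was the lowest of the 4 for Cdkn1b, Cdkn1c, Gadd45b and Btg1 and the highest for Cdkn1a, Gadd45g, Btg2, Ccng1 and Ccng2. The part of these cells in the member values was not tested.

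Fed was compared with Pre next, both with food at low ambient temperature and sampled on different days. From Pre to Fed 0 of the 10 members passed edgeR's quasi-likelihood test and 0 passed DESeq2, against 11.2% of all clusters, and 1 member, Cdkn1a, had an unadjusted p under 0.05 in edgeR. Gadd45g was lower in all 4 Fed libraries than in Pre, at 22.9, 16.5, 22.5 and 17.1 CPM, with an exact permutation p of 0.0286, the smallest that 4 against 4 libraries allow, and an FDR of 0.247. Cdkn1a in Fed measured 32.9, 38.3, 30.9 and 41.5 CPM, with a log2 change from Pre of −0.58 ± 0.27 SE (FDR 0.164).

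Fed and Mid, both at low ambient temperature, differ in food and in torpor. From Fed to Mid 6 members were higher in Mid and 1 was lower, against 35.2% of all clusters called and 16.6% called as higher. Cdkn1a was 6.49-fold higher (log2 2.70 ± 0.27 SE, FDR 8.66e-08) and Gadd45g 3.11-fold higher (log2 1.64 ± 0.23 SE, FDR 7.82e-06), both without overlap. Gadd45b (log2 1.57 ± 0.29 SE, FDR 0.000138), Ccng2 (0.97 ± 0.25 SE, FDR 0.0034, and 0.0589 on deposited TPM) and Btg2 (0.86 ± 0.23 SE, FDR 0.00504) followed. The calls of Gadd45a (log2 0.63, FDR 0.0288) and of Ccng1 (log2 −0.20, FDR 0.0244) were lost without TMM scaling (FDR 0.169 and 0.0635) and without single libraries, Gadd45a without Fed replicate 3 or 4 or Mid replicate 7 (FDR up to 0.123) and Ccng1 in 9 of 28 refits, those without Mid replicates 2, 6 or 8, Fed replicates 1 or 3, HiT replicates 3 or 4, Post replicate 1 or Dep replicate 4 (FDR up to 0.0924). All 4 red blood cell markers with a cluster were also called lower in Mid than in Fed. Their sum was 2810 to 13700 CPM in Fed (median 4420) and 2990 to 4240 CPM in Mid, so the ranges overlapped. The dividing-cell sum was 1.6 to 4.17 CPM in Fed, below every Mid library, but only 1 of the 3 markers was called higher in Mid. The median log2 change of these 3 markers from Fed to Mid was −0.42.

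Interrupted torpor (Dep) was compared with Mid, a group that can hold animals between torpor bouts. By the study's account, metabolism in Dep resembled that of the Mid animals that were not torpid at sampling. The comparison thus does not set torpor against its absence. From Mid to Dep the only member called was Ccng1 (log2 −0.27 ± 0.07 SE, FDR 0.0418), against 2.03% of all clusters, and that call was lost without TMM scaling (FDR 0.368) and in 14 of 28 refits with 1 library left out, those without Mid replicates 2, 3, 5, 6, 7 or 8, Dep replicates 2, 3 or 4, Pre replicates 2 or 3, HiT replicates 1 or 4, or Post replicate 1 (FDR up to 0.127). Cdkn1a measured 137, 182, 278 and 234 CPM in Dep, within the range of Mid, with a log2 change of −0.17 ± 0.23 SE (FDR 0.732) and an interval of 2 SE either side from −0.63 to 0.30. Gadd45a was at 16.8, 15.02, 15.3 and 10.4 CPM, overlapping both Mid and Pre, with a log2 change from Mid of −0.61 ± 0.22 SE (FDR 0.133). Gadd45b was at 3.77, 3.81, 5.09 and 2.88 CPM, the log2 change from Mid being −0.80 ± 0.27 SE (FDR 0.113, exact permutation p = 0.0121).

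Compared with Pre, 3 members rose in Dep and 1 fell, against 25.8% of all clusters called and 13.7% called as higher. Cdkn1a rose 3.85-fold (log2 1.95 ± 0.28 SE, FDR 1.22e-05), Btg2 2.61-fold to 34.5, 36.6, 47.0 and 44.3 CPM (FDR 0.000309), and Gadd45g 1.87-fold (FDR 0.00923). The Gadd45g call was lost without Dep replicate 3 (FDR 0.0591), without TMM scaling (FDR 0.0987) and on deposited TPM (FDR 0.156). Ccng1 fell by 0.57 on the log2 scale to 446, 417, 352 and 438 CPM (FDR 7.73e-06), with no overlap. Gadd45b was above every Pre library but had an FDR of 0.0686, and 0.0451 in DESeq2. In Dep replicate 1 the 5 neutrophil markers with a cluster summed to 153 CPM, against 3.84 to 3.86 CPM in the other 3 Dep libraries, and without that library Cdkn1a (log2 2.10), Btg2 (1.46), Gadd45g (1.02) and Ccng1 (−0.61) were still called from Pre to Dep. Of the dividing-cell markers 2 of 3 were called higher in Dep than in Pre, with a sum of 3.57 to 11.7 CPM in Dep.

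Ordered by mean level in experiment #1, Cdkn1a stood highest in Mid (233 ± 59.1 CPM, SD, n = 8) and Dep (208 ± 61.2, n = 4), then HiT (90.2 ± 34.1), Pre (53.9 ± 17.9), Fed (35.9 ± 4.89) and Post (24.4 ± 2.30). Mid and Dep, and Pre and Fed, did not pass the tests above, HiT and Pre overlapped, and Fed and Post did not overlap but were not tested. The order of Ccng1 was Pre (615 ± 42.4 CPM), Fed (572 ± 34.4), Mid (498 ± 40.6), Post (470 ± 8.34), Dep (413 ± 42.7) and HiT (374 CPM). It was lower than Pre by the test in Mid, Post, Dep and HiT, whereas Pre and Fed, and Mid and Post, did not pass. Post lay above Dep in every library and Dep overlapped HiT, both untested.

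Across the 28 libraries of experiment #1, the levels of the members varied together to different degrees, described by Pearson's r of log2(CPM + 0.5) over libraries that share the group structure. The highest r was 0.86 for Cdkn1a with Btg2, followed by 0.84 for Cdkn1a with Gadd45g and 0.80 for Btg2 with Ccng2. The lowest was −0.54 for Gadd45g with Ccng1.

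Among 9431 clusters of other genes with a mean of at least 1 CPM, the 3 whose levels were most like Cdkn1a over the 28 libraries were those of Slc39a14 (r = 0.96, a zinc transporter), Fam107a (0.96, a stress-induced actin-binding protein) and Lrch1 (0.95). Slc39a14 averaged only 0.813 CPM in Pre, 0.182 CPM in Post and 0.461 CPM in Fed, near the 0.5 CPM added before the log. Nearest to Btg2 were Cebpd (r = 0.92), Csrnp1 (0.91) and Aff1 (0.91), the first of them a CCAAT/enhancer-binding protein. Nearest to Ccng2 were Ypel3 (0.95), Fbxo31 (0.92), an F-box protein that binds cyclin D1, and Csnk1d (0.91). For Gadd45a the highest values were lower, with Acvr1b at 0.75, an activin receptor, Pik3ip1 at 0.74 and Xpa at 0.71.

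The factors known to act on these genes were measured as a list, 12 of 13 of which had a cluster. From Pre to Mid in experiment #1, 6 rose and 2 fell, with a median log2 change of 0.12 against 0.01 over all clusters, of which 30.2% were called. The 4 named here had the smallest p and all rose, and the 2 that fell are not named. Foxo1 rose from 26.6 to 58.5 CPM (log2 1.14 ± 0.20 SE, FDR 9.08e-05), Foxo3 from 22.5 to 48.2 CPM (FDR 2.29e-05), Atf4 from 50.7 to 93.9 CPM (FDR 3.06e-06) and Cebpb from 92.5 to 153 CPM (FDR 1.94e-05). All 4 rose in experiment #2 as well (FDR 0.00276 to 0.0288). Between HiT and Mid, Foxo1 (log2 1.26 ± 0.20 SE) and Cebpb (0.60 ± 0.11 SE) were higher in Mid, whereas Foxo3 (0.32 ± 0.16 SE, FDR 0.111) and Atf4 (0.26 ± 0.11 SE, FDR 0.0658) did not pass.

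Of 17 p53 pathway genes with a cluster (25 listed), 5 rose and 4 fell from Pre to Mid, against 30.2% of all clusters called, with a median log2 change of 0.06. The genes named here are the 4 with the smallest p, all of which rose, and the 4 that fell are not named. Sesn1, a sestrin that restrains mTORC1, rose from 15.3 to 69.7 CPM (log2 2.19 ± 0.25 SE, FDR 4.95e-07) and again in experiment #2 (log2 2.07 ± 0.17 SE, FDR 0.00016). Trp53inp1, a stress protein tied to autophagy, rose by a log2 change of 1.51 ± 0.33 SE (FDR 0.000999), Phlda3, an inhibitor of AKT, by 0.74 ± 0.15 SE (FDR 0.000467), and Xpc, a DNA damage sensor, by 0.36 ± 0.09 SE (FDR 0.00437). Of these 3, Trp53inp1 (FDR 0.00501) and Phlda3 (FDR 0.048) were called in experiment #2 and Xpc was not (FDR 0.0927).

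The G1 machinery was measured through 10 of 17 listed genes, of which 1 rose and 2 fell from Pre to Mid, a share near the 30.2% of all clusters called. The riser was Rbl2, which encodes the pocket protein p130 of resting cells, from 47.3 to 80.1 CPM (log2 0.76 ± 0.11 SE, FDR 8.09e-06), and it rose in experiment #2 too (FDR 0.0446). Ccnd1 fell from 7.33 to 3.69 CPM (log2 −0.99 ± 0.18 SE, FDR 0.000183) and Ccnd3 from 8.71 to 5.60 CPM (log2 −0.64 ± 0.15 SE, FDR 0.00236), both cyclins that drive CDK4 and CDK6, and Ccnd2 measured 4.88 and 3.30 CPM (FDR 0.0683). In experiment #2 Ccnd1 (log2 −0.29 ± 0.33 SE, FDR 0.638) and Ccnd3 (−0.33 ± 0.27 SE, FDR 0.501) were not called. In HiT, beside the dividing-cell and macrophage markers given above, 6 of these 10 genes were higher than in Pre and 0 were lower, against 33.4% of all clusters called.

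Of the other CDK inhibitors only Cdkn2c and Cdkn2d had a cluster. Cdkn2c, which encodes p18, fell from 7.19 to 3.77 CPM (log2 −0.94 ± 0.32 SE, FDR 0.0293) and rose from Mid to Post (log2 0.93 ± 0.32 SE, FDR 0.028), of which the rise (FDR 0.0195) but not the fall (FDR 0.47) was called in experiment #2. Cdkn2d measured 17.5 and 18.6 CPM (FDR 0.537).

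**Figure D4:**
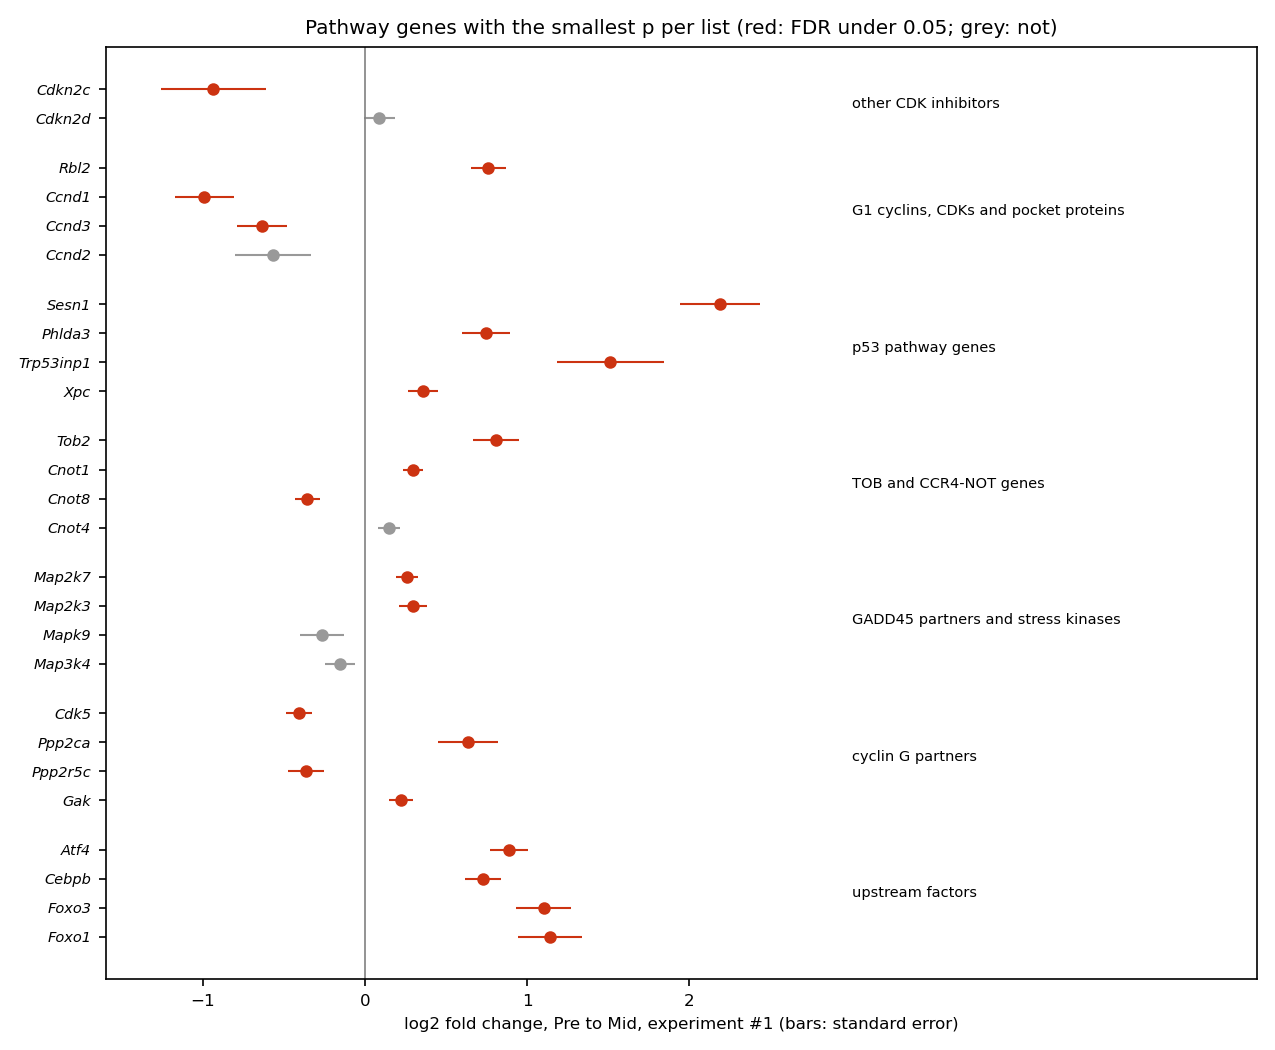
Log2 fold change from Pre to Mid in experiment #1 with its standard error (horizontal axis) of up to 4 genes per list, those with the smallest p in that comparison, in red where the FDR was below 0.05 and grey otherwise. Sesn1 at 2.19 and Trp53inp1 at 1.51 lie farthest to the right and Ccnd1 at −0.99 farthest to the left.

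Partners of the members formed 3 lists, read against the 30.2% of all clusters called from Pre to Mid, and the first pair of lists lay below it. Of 14 TOB and CCR4-NOT genes with a cluster (16 listed), 2 rose (Tob2, a relative of the BTG proteins, log2 0.81 ± 0.14 SE, FDR 9.34e-05, and Cnot1, the scaffold of the complex, 0.30 ± 0.06 SE, FDR 0.000687) and 1 fell (the deadenylase Cnot8, −0.36 ± 0.08 SE, FDR 0.000934). Of 10 GADD45 partners and stress kinases, 2 rose, Map2k7 (log2 0.26 ± 0.07 SE, FDR 0.00422) and Map2k3 (0.29 ± 0.09 SE, FDR 0.0121), and 0 fell. Of 9 cyclin G partners 2 rose and 3 fell, among them Ppp2ca, the catalytic subunit of PP2A (log2 0.63 ± 0.18 SE, FDR 0.0108), and Cdk5 (−0.41 ± 0.08 SE, FDR 0.000378). In experiment #2 Tob2 (FDR 0.00193) and Ppp2ca (FDR 0.0365) were called again, and Cnot1, Cnot8, Map2k7, Map2k3 and Cdk5 were not (FDR 0.127 to 0.831). The list medians from Pre to Mid in experiment #1 were −0.01, −0.04 and −0.04 on the log2 scale.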

How the data were processed

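Soleus nAnT-iCAGE libraries were grouped by their labels, with the experiment taken from the sequencing run. Per the labels, tags were mapped to mm10 (GRCm38) with BWA and HISAT2, whose versions are not given in the sources used here, and the authors clustered the 5′ ends of all libraries into peaks. The deposited table holds raw tag counts (not normalized) and, per the file headers, TPM, the counts scaled to all mapped tags of a library. Libraries were compared for duplicates: over 72 pairs of libraries of a group, the lowest chi-square per cluster was 12.4, far over sampling noise.

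Clusters were assigned to genes with GENCODE annotation of the same build. Counts were tested with edgeR 4.0.16 (R 4.3.3; TMM, quasi-likelihood test, 1 fit per experiment, clusters with any tag), at a Benjamini-Hochberg FDR of 0.05. The depth of 9359994 to 39176649 tags limits the precision of low clusters. Single members were also compared by an exact two-sided permutation test of mean log2(CPM + 0.5). SE is the log2 fold change over the root of the F statistic. Each library is 1 animal. Deposited TPM entered 1 alternative with limma 3.58.1, on log2(TPM + 0.5), chosen after seeing the data; DESeq2 1.42.0 was another. The fitting was tested on simulated data. Named genes are all members, up to 4 genes per list with the smallest p from Pre to Mid, and the 3 clusters most like each of 4 members. Members and lists were chosen with earlier results of these data known.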

Additional observations from a re-analysis of the deposited data

Results flagged for a closer look

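In 70 groups of 4 or more libraries, 3 held a library far from the others on the log2 scale, against about 1 in 20 groups that chance gives. Cdkn1a in Mid replicate 6 measured 103 CPM, against 207 to 290 CPM in the other 7 Mid libraries of experiment #1. Gadd45b in Fed replicate 1 measured 3.99 CPM, against 1.62 to 1.84 CPM in the other 3 Fed libraries. Cdkn1c in Mid replicate 11 of experiment #2 measured 32.9 CPM, against 6.95 to 10.1 CPM in the other 4, and the dividing-cell markers summed to 22.3 CPM there, the highest of that group; the part of these cells was not tested. Without that library the Pre to Mid log2 change of Cdkn1c in experiment #2 was 0.08 ± 0.19 SE in place of 0.70 ± 0.54 SE, and neither passed the test (FDR 0.841 and 0.47).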

How the results depend on the processing

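Of 46 member changes called, 29 were called in every refit with 1 library left out and under every other setting, and none reversed. On deposited TPM, 4 members were called from Fed to Mid in place of 7, 3 from Pre to HiT in place of 6, 0 from Pre to Post in place of 2 and 0 from Mid to Dep in place of 1. From Pre to Mid in experiment #1, Gadd45a (FDR 0.131) and Ccng2 (FDR 0.132) were not called on deposited TPM. With only the compared groups, Ccng2 was not called there either (FDR 0.0566). Without TMM scaling, 0 were called from Pre to Post and 0 from Mid to Dep. From Mid to Dep, 0 were also called with only the compared groups, with all 38 libraries in 1 fit and with the replicate block. In experiment #2, 3 were called from Pre to Mid in place of 5 with only the compared groups and 3 with lane as a term, and from Mid to Post 4 in place of 6 with lane as a term. Leaving out 1 library gave 0 to 1 from Mid to Dep, 1 to 2 from Pre to Post and 3 to 5 from Pre to Mid in experiment #2. The causes were not tested. With the replicate block 7 members were called from Pre to Mid and 6 from Mid to Post in experiment #1, where Cdkn1b was added (FDR 0.0253); same-numbered libraries correlated at −0.6 to 0.453 over 60 pairs, 17 of them over 0.1, so the numbers do not pair the samples. No paired analysis was possible in experiment #2 because Mid shares no number with Pre or Post there. Groups of 2 to 5 libraries and counts down to 14 tags limit what small changes can be seen.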
